A study of Homo sapiens with 21 samples.

Results

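Chromatin that was open in all 4 melanoma cell lines of the study, 501mel, SKMEL-5, SKMEL-147 and A375, but carried neither acetylated lysine 27 of histone H3 (K27ac) nor the insulator protein CTCF was described from the authors' region lists. The 4 ATAC-seq lists were merged into 228532 regions, of which 33529 overlapped a region of every list by at least 1 bp. Of these, 1650 (4.92%, 95% Wilson interval 4.70 to 5.16) overlapped no region of the 8 K27ac lists and none of the 2 CTCF lists. CTCF was listed only for 501mel and SKMEL-5, so its absence in SKMEL-147 and A375 was not measured. The 1650 regions are called unmarked open regions below. The other 31879 regions open in the 4 lines were divided into 8824 with K27ac but no CTCF, 7756 with CTCF but no K27ac and 15299 with both. They were chosen by the ATAC, K27ac and CTCF regions, so the presence, strength or absence of these signals is given as a description. Place, neighbouring genes, promoter sequence and HOXD13 regions were not used by the choice.

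Open chromatin was profiled in A375 cells labelled GFP, a control for the tagged protein as far as the label goes, and in 501mel, SKMEL-5 and SKMEL-147 cells, for which the labels name no construct. The K27ac lists came from the same 4 kinds of cells and from 4 A375 libraries of a silencing series, with the hairpin shH2, the hairpin shH3 and 2 replicates of shNTC, read as the non-targeting control. CTCF was profiled in 501mel and SKMEL-5, and HOXD13 carrying an HA tag in A375 cells. All cells were cultured for 72 h with or without 1 µg/ml doxycycline, an inducer of transgenes and hairpins, without a statement per sample. The labels also leave unsaid which gene each hairpin targets and which libraries were made by ChIP-seq or by CUT&Tag. The ATAC regions of 501mel carry siNTC in their names, a term absent from the sample's label.

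Each kind of list came from 1 library per group except shNTC, so no test over samples was possible, and intervals cover counting error only. The lists hold no read counts, so depth is unknown; the ATAC lists ranged from 56333 regions in SKMEL-5 to 163102 in SKMEL-147, and absence from a list means only that no region passed the authors' threshold. Gene starts of 8 melanocytic markers had an ATAC region within 2 kb at 6 genes in 501mel, 7 in SKMEL-5, 4 in SKMEL-147 and 4 in A375-GFP, with MITF and SOX10 among them in each line. Of 8 markers of the undifferentiated melanoma state, 5, 7, 8 and 8 had one in the same order of lines. Marker genes of other cell types were open too, with 3, 2, 4 and 4 of 4 endothelial, 2, 3, 4 and 4 of 4 fibroblast, 0, 0, 2 and 4 of 5 keratinocyte, 2, 1, 1 and 1 of 4 T cell and 1, 1, 2 and 1 of 4 hepatocyte genes, so an open start does not by itself mark the cell type.

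ATAC-seq cuts DNA that is free of packed nucleosomes, which is the state of promoters, enhancers and insulators. K27ac is deposited at active promoters and enhancers by the acetyltransferases p300 and CBP, and CTCF holds the anchors of chromatin loops together with cohesin. Open sites that carry neither are known to include poised or silent CpG-rich promoters and sites of other DNA-binding proteins. HOXD13 is a homeodomain transcription factor best known for patterning the digits of the limb.

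Promoters are shown first, because 6 of the 10 most strongly open unmarked regions lay at gene starts. The 8 sequences below are RefSeq promoter windows (GRCh38.p14, 250 bases before to 50 after the gene start, 5′ to 3′ on the strand of the gene) that overlap an unmarked open region. They belong to genes named in the text by the stated rules, and are given in the order of the mean percentile of the region's ATAC −log10 q over the 4 lines; other unmarked promoters with higher percentiles than ABCA7 and EPAS1 are not shown. Capitals mark the CpG dinucleotides.
LANCL1, chr2:210476710-210477009, minus strand: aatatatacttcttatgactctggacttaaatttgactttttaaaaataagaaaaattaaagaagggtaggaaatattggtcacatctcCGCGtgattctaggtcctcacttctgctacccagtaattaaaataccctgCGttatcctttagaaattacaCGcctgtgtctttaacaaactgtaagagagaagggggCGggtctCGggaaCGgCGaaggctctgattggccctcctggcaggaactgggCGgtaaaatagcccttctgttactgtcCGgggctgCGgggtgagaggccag
C7orf57, chr7:48035293-48035592, plus strand: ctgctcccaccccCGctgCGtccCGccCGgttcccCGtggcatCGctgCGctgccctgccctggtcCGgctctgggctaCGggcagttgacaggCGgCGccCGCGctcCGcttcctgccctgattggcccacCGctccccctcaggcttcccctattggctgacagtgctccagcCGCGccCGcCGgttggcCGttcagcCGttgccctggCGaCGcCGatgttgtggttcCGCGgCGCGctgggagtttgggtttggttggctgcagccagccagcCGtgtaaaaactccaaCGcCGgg
RALGPS1, chr9:126914532-126914831, plus strand: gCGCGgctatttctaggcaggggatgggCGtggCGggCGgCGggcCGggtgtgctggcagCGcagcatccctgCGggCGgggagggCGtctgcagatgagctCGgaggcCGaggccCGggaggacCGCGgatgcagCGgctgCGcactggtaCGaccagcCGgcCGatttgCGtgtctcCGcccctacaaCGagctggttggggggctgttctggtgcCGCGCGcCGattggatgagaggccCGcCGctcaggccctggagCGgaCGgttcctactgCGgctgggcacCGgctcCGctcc
THOC3, chr5:175968266-175968565, minus strand: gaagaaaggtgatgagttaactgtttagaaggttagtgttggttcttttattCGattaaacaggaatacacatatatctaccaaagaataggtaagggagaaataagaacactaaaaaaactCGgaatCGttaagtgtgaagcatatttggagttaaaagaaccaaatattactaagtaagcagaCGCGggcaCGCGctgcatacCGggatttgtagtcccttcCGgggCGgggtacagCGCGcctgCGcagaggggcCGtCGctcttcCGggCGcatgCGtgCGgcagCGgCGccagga
GLIS1, chr1:53739115-53739414, minus strand: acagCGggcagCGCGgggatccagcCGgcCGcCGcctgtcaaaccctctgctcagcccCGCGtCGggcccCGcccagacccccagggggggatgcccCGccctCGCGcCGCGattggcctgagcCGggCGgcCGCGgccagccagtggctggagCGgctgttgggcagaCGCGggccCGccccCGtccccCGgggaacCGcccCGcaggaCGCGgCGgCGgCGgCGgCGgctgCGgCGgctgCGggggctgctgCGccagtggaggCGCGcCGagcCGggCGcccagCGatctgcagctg
ZNF324B, chr19:58451372-58451671, plus strand: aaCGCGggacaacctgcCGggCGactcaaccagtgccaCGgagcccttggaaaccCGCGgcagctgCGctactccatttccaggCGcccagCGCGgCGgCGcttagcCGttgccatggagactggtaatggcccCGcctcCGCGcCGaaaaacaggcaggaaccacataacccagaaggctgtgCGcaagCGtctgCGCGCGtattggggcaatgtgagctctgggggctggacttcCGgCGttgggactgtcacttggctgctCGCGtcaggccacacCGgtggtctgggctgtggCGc
ABCA7, chr19:1039857-1040156, plus strand: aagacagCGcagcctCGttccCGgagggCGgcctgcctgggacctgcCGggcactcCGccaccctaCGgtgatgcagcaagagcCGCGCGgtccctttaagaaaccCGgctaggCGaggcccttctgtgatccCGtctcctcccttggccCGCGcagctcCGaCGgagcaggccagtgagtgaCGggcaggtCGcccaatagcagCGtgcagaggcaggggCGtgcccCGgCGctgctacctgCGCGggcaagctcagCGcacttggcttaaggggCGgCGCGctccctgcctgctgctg
EPAS1, chr2:46297157-46297456, plus strand: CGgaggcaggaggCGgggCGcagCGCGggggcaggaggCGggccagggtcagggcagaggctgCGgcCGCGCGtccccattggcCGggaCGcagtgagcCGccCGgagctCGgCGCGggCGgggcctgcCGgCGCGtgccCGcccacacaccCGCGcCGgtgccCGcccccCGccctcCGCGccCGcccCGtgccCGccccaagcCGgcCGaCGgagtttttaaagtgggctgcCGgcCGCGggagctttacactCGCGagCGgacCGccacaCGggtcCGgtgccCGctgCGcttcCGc
LANCL1, which encodes a glutathione-binding protein of the lanthionine synthetase family, had 11 CpG and 45.3% GC in its window. Its open region lay 52 bp from a K27ac region. EPAS1, which encodes the hypoxia-inducible factor HIF-2α, had 47 CpG and 80% GC, and GLIS1, a Krüppel-like zinc finger factor, had 44 CpG and 81.3% GC. The windows of C7orf57, of the Ral guanine exchange factor RALGPS1, of the mRNA export subunit THOC3, of the zinc finger gene ZNF324B and of the lipid transporter ABCA7 lay between, with 21 to 35 CpG. These 8 windows thus ranged from 11 to 47 CpG.

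Across all gene starts, 298 of the 15812 RefSeq promoter windows of protein-coding genes overlapped an unmarked open region. Their GC content was high, with a median of 71.0% (quartiles 65.4 and 76.3), against 69.7% in 2487 promoters with open K27ac regions only, 65.3% in 264 with CTCF only, 64.3% in 5552 with both and 57.0% in 7211 with no region open in the 4 lines. The median number of CpG was 31 per window in unmarked promoters, against 32 with K27ac only, 24 with CTCF only, 26 with both and 8 without an open region. Both medians of the unmarked promoters were closer to those with K27ac only than to those without an open region.

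They differed in short sequence motifs, each searched as exact letters on both strands. The ETS motif CCGGAAG, bound by ETS-family activators such as GABPA at housekeeping promoters, was found in 20 of 298 unmarked promoters (6.71%, 4.39 to 10.1), against 22.4% of promoters with K27ac only, 6.44% with CTCF only, 23.9% with both, 4.45% with no open region and 14.2% of all promoters. The difference from K27ac only was -15.69 percentage points (95% Newcombe interval -18.55 to -11.90). Restricted to windows with at least 20 CpG, the share was 7.79% in unmarked promoters. It was 23.1% with K27ac only, 8.64% with CTCF only, 25.6% with both and 8.25% with no open region. The difference from K27ac only was then -15.35 points (-18.67 to -10.93), so that gap was as large at matched minimum CpG content. From promoters with no open region the difference was -0.464 points (-3.478 to 3.735). Among the sequences above, THOC3 held 2 ETS matches, at positions 221 and 266 counted from the 5′ end of the window, and ZNF324B held 1 at position 234.

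Of the other motifs, the CRE palindrome TGACGTCA of CREB and ATF factors was found in 4 unmarked promoters (1.34%), against 3.74% with K27ac only (difference -2.397 points, -3.556 to -0.231). The NRF1 motif was found in 2 (0.671%), against 2.77% with K27ac only (difference -2.103 points, -2.974 to -0.268). With CTCF only the shares were 1.89% for CRE and 0.379% for NRF1, and with no open region 1.28% and 0.707%. Each interval of the difference from these 2 classes included 0. The CTCF core was found in 15.8% of unmarked promoters, against 22.4% of those with CTCF only, 15.5% with K27ac only and 12.8% of all promoters, and EPAS1 held a match at position 198. The HOXD13 motif CAATAAA was found in 2 unmarked promoters (0.671%, 0.184 to 2.41), against 1.37% with K27ac only and 2.83% of all promoters, and the AP-1 motif TGANTCA in 3.36%, against 3.70% and 5.76%. For both of these the interval of the difference from promoters with K27ac only included 0. These letters were searched only in the promoter windows, and a match is not a bound site. The unspecified positions of the CTCF core can hold the ETS letters, so 1 stretch can count for both, and the other motifs do not contain one another. ATAC strength also differed between these classes (below), and its part in the ETS difference was not tested.

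**Figure D1:**
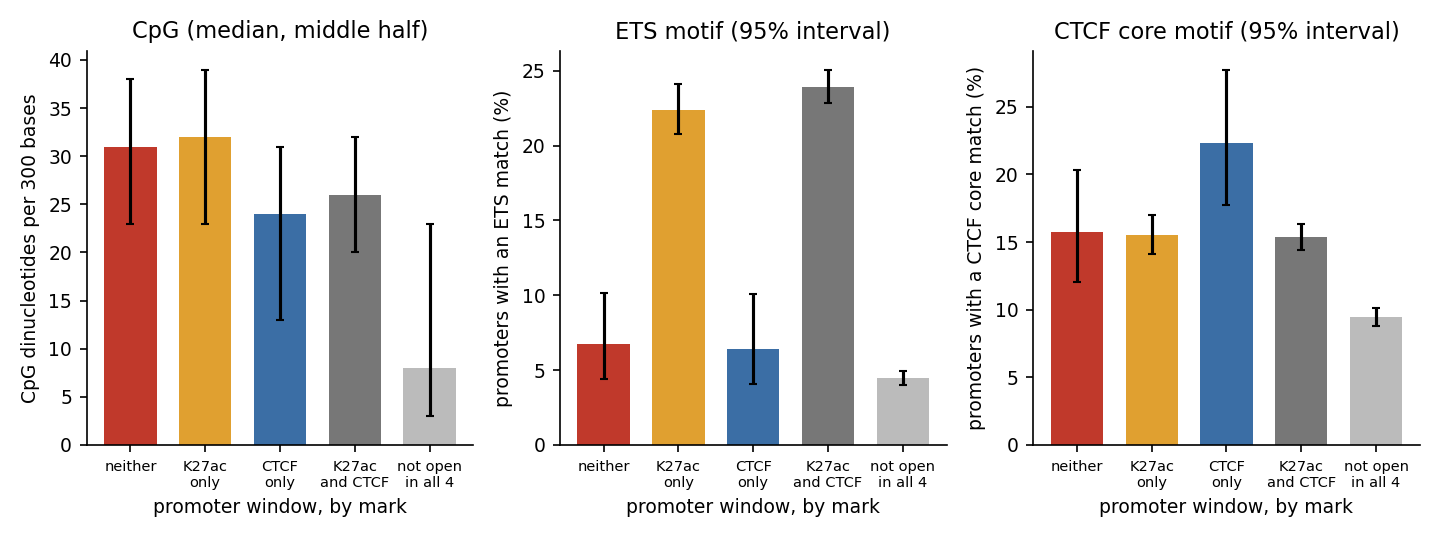
Promoter sequence by class of open region, in RefSeq windows of 300 bases, with unmarked promoters (neither mark) at the left of each panel. Bars give the median number of CpG (whiskers, quartiles) and the percentage of promoters with an ETS match or a CTCF core match (whiskers, 95% Wilson intervals). The ETS share was 6.71% in unmarked promoters and 22.4% in promoters with K27ac only.

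Unmarked open regions were weaker than most regions open in the 4 lines. The authors' −log10 q of each ATAC region was turned into a percentile within its own list. The median percentile in 501mel was 56.1 at unmarked regions, against 71.8 with K27ac only, 66.0 with CTCF only and 87.3 with both. In SKMEL-5 it was 42.5 at unmarked regions, against 51.1, 61.5 and 73.4 in the same order. In SKMEL-147 it was 65.1, against 84.3, 68.5 and 86.2. In A375-GFP it was 61.3, against 83.8, 58.2 and 88.0. Unmarked regions thus had the lowest median in 3 of the 4 lines, and in A375-GFP the regions with CTCF only were lower. The median authors' fold over background at unmarked regions was 9.05 in 501mel, 6.29 in SKMEL-5, 14.5 in SKMEL-147 and 8.73 in A375-GFP, on scales that cannot be compared between libraries.

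**Figure D2:**
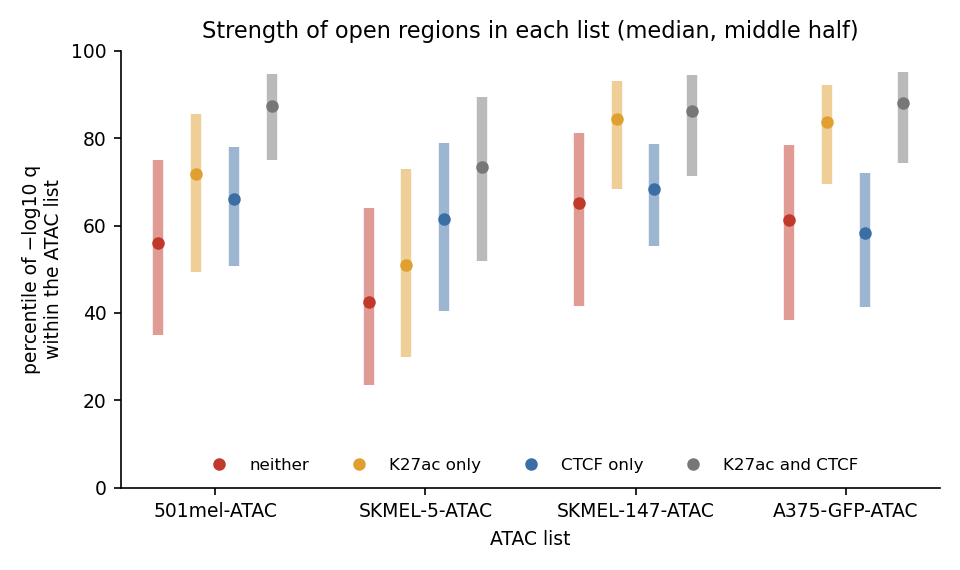
ATAC strength of regions open in the 4 lines: the percentile of the authors' −log10 q within each ATAC list, with points for medians and bars for quartiles, unmarked regions (neither mark) at the left of each line. Unmarked regions had a median of 42.5 in SKMEL-5 and 65.1 in SKMEL-147, below the regions with K27ac in each line.

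The unmarked regions also varied among themselves. At percentile 75 or above in all 4 lists at once were 83 of them (5.03%), against 13.9% of regions with K27ac only, 6.95% with CTCF only and 33.1% with both. At percentile 50 or above in all 4 lists were 318, and below it in all 4 were 148. By percentile, 587 were strongest in SKMEL-147, 493 in A375-GFP, 380 in 501mel and 190 in SKMEL-5. Spearman's correlation of percentiles across the 1650 regions ran from 0.279, between SKMEL-5 and A375-GFP, to 0.436, between 501mel and SKMEL-5, as a description over regions that share the same 4 libraries. The ATAC summits of the 4 lines lay within a median range of 96 bp in an unmarked region, against 116 bp with K27ac only, 70 bp with CTCF only and 122 bp with both. A range of 50 bp or less was seen at 19.2% of unmarked regions, against 14.5%, 33.3% and 13.9% in the same order. Unmarked regions had a median width of 709 bp, against 955, 589 and 1039 bp. They were thus narrower than both classes with K27ac and wider than the class with CTCF only.

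Among the 10 strongest unmarked regions were those near RNF141, LANCL1, GPR39, C7orf57, RALGPS1, THOC3, SLCO5A1, GLIS1 and ZNF324B. The first, chr11:10509207-10509996, lay between genes, 31586 bp from the start of RNF141, which encodes a RING finger protein, and had a mean percentile of 99.9. Its folds were 20.4 in 501mel, 13.7 in SKMEL-5, 18.1 in SKMEL-147 and 21.0 in A375-GFP. The region at the LANCL1 start lay only 52 bp from the nearest K27ac region. Its folds were 27.6 in 501mel, 23.7 in SKMEL-5, 26.6 in SKMEL-147 and 18.0 in A375-GFP. At THOC3 the folds were 27.8, 13.4, 31.9 and 18.4 in the same order of lines. Of these 10 regions, those of LANCL1, C7orf57, RALGPS1, THOC3, GLIS1 and ZNF324B had their midpoint 17 to 196 bp from a gene start.

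Over all unmarked open regions, 438 (26.6%, 24.5 to 28.7) had their midpoint within 2 kb of the start of a protein-coding gene, 476 (28.9%) lay inside a gene and 736 (44.6%) between genes. Near a start were 33.1% of regions with K27ac only, 7.79% with CTCF only and 39.6% with both. The difference of unmarked regions was -6.59 points from regions with K27ac only (-8.89 to -4.20), -13.03 from those with both (-15.24 to -10.71) and 18.8 from those with CTCF only (16.6 to 21.0). With ATAC lists cut to equal length the share was 46.7% of 469 unmarked regions, against 47.9% with K27ac only, 49.5% with both and 10.6% with CTCF only. There the intervals of the differences from both K27ac classes included 0 (-5.89 to 3.51 and -7.33 to 1.85 points), whereas that from CTCF only stayed above 0. The share was 19.7% when only the 15812 genes with a start in the RefSeq promoter table were used, since for the other 4162 the nearer gene end stood in. Among merged regions without K27ac or CTCF, 3.58% of those open in 1 line, 5.91% in 2, 11.8% in 3 and 26.6% in 4 lay near a start.

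**Figure D3:**
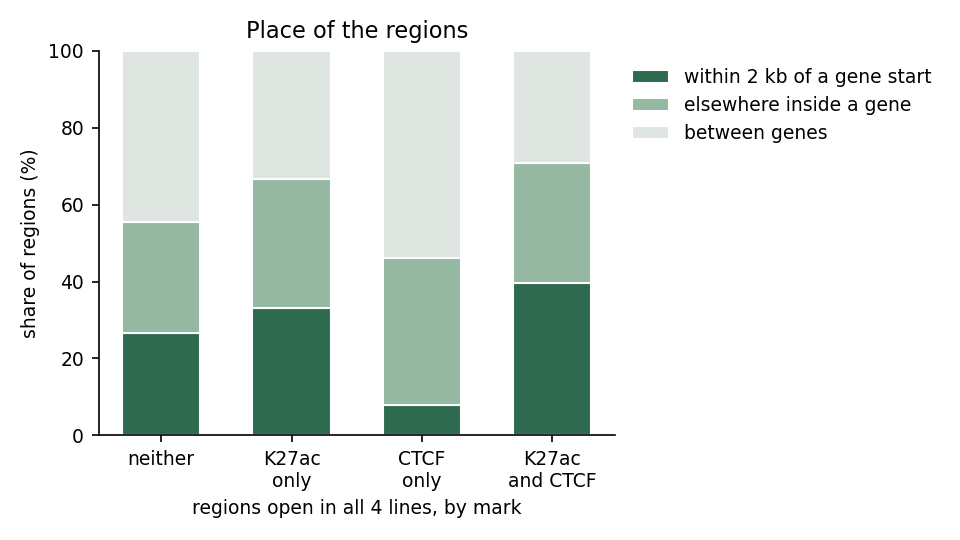
Place of regions open in the 4 lines: stacked bars give the percentage near a gene start (within 2 kb), elsewhere inside a gene and between genes, for unmarked regions (neither mark) at the left and the other classes to their right. Near a start lay 26.6% of unmarked regions, against 33.1% with K27ac only, 7.79% with CTCF only and 39.6% with both.

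By chromosome, the unmarked share of the regions open in the 4 lines was highest on X, at 69 of 796 (8.67%), and lowest on chromosome 17, at 3.15%. Of 1175 bins of 1 Mb with an unmarked region, 824 held 1. A bin of chromosome 1, 143000001 to 144000000, held 10 unmarked regions among its 25 open in the 4 lines, all between genes. The lists were filtered by chromosome only, not for repeats or mappability. Whether repeated sequence or read mapping contributed to this cluster, or to other unmarked regions, was not tested. The MHC, 28 to 34 Mb of chromosome 6, held 7 unmarked regions among 146 open in the 4 lines. It held 1.09 to 2.14% of the chromosome 6 regions of the 4 hairpin-series K27ac lists, against 5.31 to 9.05% in the other 4 K27ac lists, so absence of K27ac there is less certain. Pseudogenes lay within 500 bp of 2.36% of unmarked regions, against 1.24% of those with K27ac only, 2.15% with CTCF only and 1.31% with both. Transfer RNA genes lay within 500 bp of 5 unmarked regions (0.303%), against 0.181%, 0.297% and 0.915% in the same order.

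At the level of genes, 461 of 19974 protein-coding genes (2.31%) had an unmarked open region within 2 kb of the start. Any region open in the 4 lines was found there at 55.6% of genes, and of those 11103 genes 4.15% had an unmarked one. Within 50 kb of the gene, 2333 genes (11.7%) had an unmarked region, and 90.8% had any region open in the 4 lines. At 11 of the 461 genes another open region with K27ac lay within the same 2 kb.

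The 28 gene lists, 7 of them drawn by symbol, were read against those shares. Angiogenesis factors and receptors had 3 of 25 genes (12.0%, 4.17 to 29.96), namely EPAS1, the Notch ligand DLL4 and the placental growth factor PGF. At EPAS1 the fold was 17.8 in 501mel, 9.48 in SKMEL-5, 17.3 in SKMEL-147 and 11.8 in A375-GFP. At DLL4 it was 7.64, 5.18, 9.20 and 6.12, and at PGF 5.16, 4.74, 10.5 and 11.4, in the same order of lines. At 12 of the 25 genes any region open in the 4 lines lay within 2 kb of the start, so the count rests on 3 of 12. Synaptic genes had 2 of 32, the vesicle protein SYP and the NMDA receptor subunit GRIN2A. One gene each was found among 64 developmental transcription factors (POU4F1, a sensory neuron factor), 24 cancer-testis genes (MAEL, which acts in the piRNA pathway of the germ line), 24 undifferentiated-state genes (NGFR, the low-affinity neurotrophin receptor) and 20 chemokines and cytokines (CXCL12, the ligand of CXCR4). For NGFR the promoter table gives no start, and the region lay 40 bp from a gene end. Of 517 zinc finger genes named ZNF, 7 (1.35%, 0.657 to 2.77) had one, among them ZNF324B, ZNF467, ZNF287 and ZNF813.

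**Figure D4:**
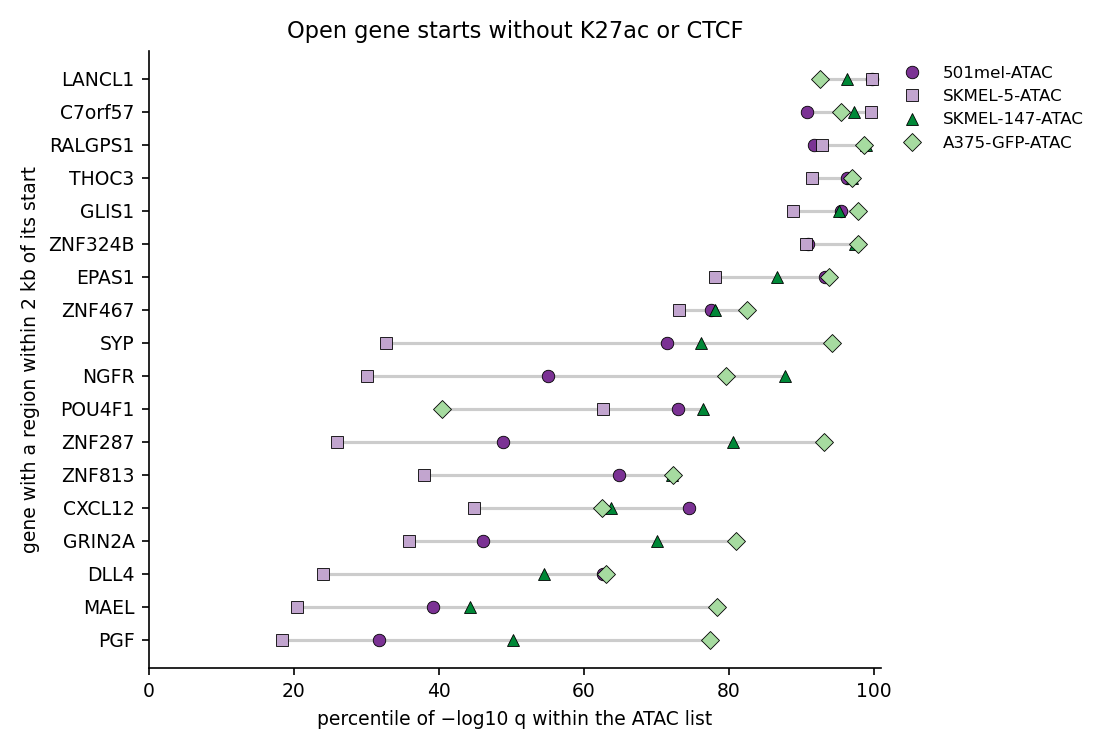
Percentile of the authors' −log10 q within each ATAC list (0 to 100) for 18 genes with an unmarked open region within 2 kb of a gene start, one symbol per cell line. LANCL1 and C7orf57 lie near the top of all 4 lists. Most of the 18 genes, DLL4, MAEL and PGF among them, are lowest in SKMEL-5.

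The other 21 lists had no gene with an unmarked region within 2 kb of the start. Over all protein-coding genes the share was 2.31%. The upper 95% limit lay above it in each of these lists except olfactory receptor genes (0.971%), so the other lists were too short to differ from it. Among the 21 lists were 39 HOX genes, of which 18 had some region open in the 4 lines there and 17 had one with K27ac. The 4 HOX clusters held 27 regions open in the 4 lines by count, 4 in the HOXD cluster, 7 in HOXC, 9 in HOXB and 7 in HOXA. None of these 27 was unmarked, against 4.92% of all regions open in the 4 lines, a share from which so few regions cannot be told apart. None was found at 25 cell cycle genes, 24 p53 targets, 20 housekeeping genes, 84 ribosomal protein genes or 77 mitochondrial ribosome genes, lists in which most genes had an open region with K27ac at the start. None was found at 20 melanocytic genes, 29 interferon-stimulated genes or 20 antigen presentation genes, nor at olfactory receptor genes, where 7 had any region open in the 4 lines. The remaining lists with none were limb development, adenosine pathway, cohesin with CTCF, histone, clustered protocadherin and keratin genes, and markers of keratinocytes, T cells, fibroblasts, endothelium and liver cells. Within 50 kb, the highest shares were at keratinocyte genes, with 3 of 12 (25%, 8.89 to 53.2), synaptic genes, with 7 of 32 (21.9%, 11.0 to 38.8), and angiogenesis genes, with 5 of 25 (20%, 8.86 to 39.1), and each interval includes the 11.7% of all genes. Of the named neighbours, the limb signal SHH had an unmarked region 46591 bp away and the homeobox gene MSX2 one 14519 bp away. The p53 inhibitor MDM2 had one at 15051 bp, with folds of 17.1 in 501mel, 17.5 in SKMEL-5, 14.8 in SKMEL-147 and 3.76 in A375-GFP. The proliferation gene MKI67 had one at 23852 bp, the melanosome receptor gene GPR143 one at 37783 bp and HLA-B, which presents antigen to T cells, one at 46475 bp. The midpoint of the GPR143 region lay inside SHROOM2. That of the HLA-B region lay inside MICA, and the region was 58 bp from a K27ac region. The interferon-stimulated gene RSAD2 held an unmarked region within the gene, which was also 11213 bp from CMPK2.

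Several long genes held more than 1 unmarked region. ANKS1B, a postsynaptic scaffold gene, held 4 of its 10 regions open in the 4 lines, and PHACTR1, a regulator of actin and protein phosphatase 1, held 4 of 7. CACNA1C, CASZ1, OPCML, PTPRM and TNS1 held 3 each. CASZ1, a zinc finger transcription factor gene, held 3 of 4. ABCA7, ABCB1 and APLP1 held 2 each, taken by alphabet from a longer tie.

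The HA-tagged HOXD13 list came from 1 A375 library, and no HA library without HOXD13 was analysed here. HOXD13-HA was found at 81 of the 1650 unmarked regions (4.91%, 3.97 to 6.06), against 2361 of 31879 other regions open in the 4 lines (7.41%), a difference of -2.50 points (-3.48 to -1.31). The unmarked share was 1.76% with only HOXD13-HA regions at −log10 q of at least 10, and 1.53% with every list at that minimum. Backgrounds were 5.61% of all merged ATAC regions, 7.28% of all regions open in the 4 lines and 8.32% of A375-GFP ATAC regions. By class the share was 4.91% at unmarked regions, against 10.9% with K27ac only (difference -6.00 points, -7.16 to -4.69), 1.91% with CTCF only (3.00 points, 2.00 to 4.19) and 8.17% with both (-3.26 points, -4.30 to -2.04). Away from gene starts the share was 5.86% at unmarked regions, against 14.2% with K27ac only, 1.93% with CTCF only and 11.0% with both. Near starts it was 10 of 438 (2.28%), against 4.24%, 1.66% and 3.83%, where each interval of the difference included 0. Width and A375-GFP ATAC strength were also each cut into 5 classes, inside which both still varied. Within the combined classes, the difference from all other regions was -1.77 points (-2.76 to -0.577). It was not uniform across width. In the narrowest class the share was 4.70% of 553 unmarked regions (3.23 to 6.80), against 3.45% of other regions (3.02 to 3.94). From the second to the widest class it was 6.19% against 7.12%, 5.88% against 9.04%, 1.93% against 8.32% and 4.27% against 8.88%. By strength alone it was 3.64% against 4.27% in the weakest class and 1.786% against 6.015% in the strongest.

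The difference from the other regions open in the 4 lines rested in part on the hairpin series. Without its 4 K27ac lists it was -0.718 points (-1.66 to 0.348), and with ATAC lists cut to equal length -0.693 points (-2.64 to 1.95). With every list at −log10 q of at least 10 it was -0.846 points (-1.45 to 0.00894), and with the ATAC lists alone so filtered -2.33 points (-4.08 to 0.504).

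**Figure D5:**
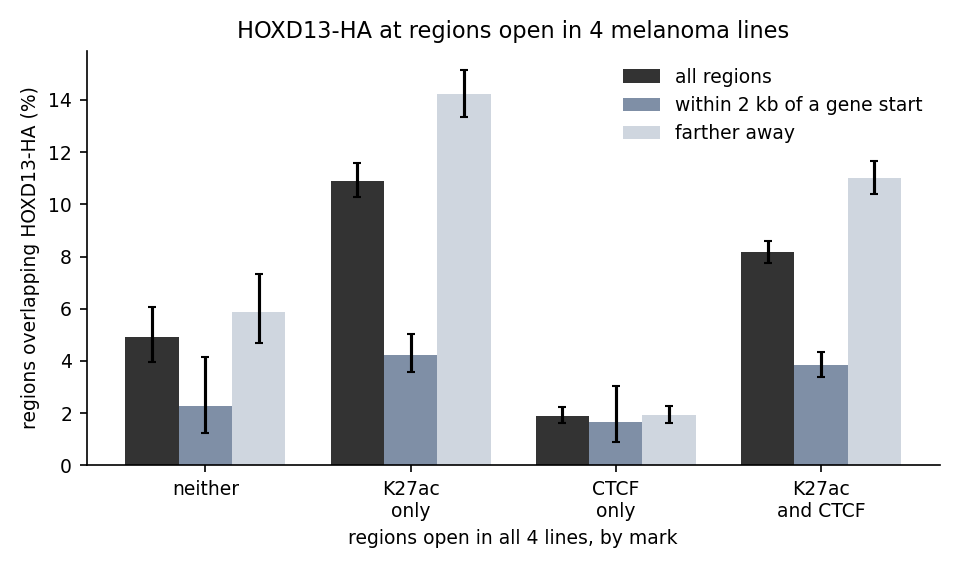
Percentage of regions open in the 4 lines that overlap a HOXD13-HA region, with unmarked regions (neither mark) at the left. Bars give all regions, those within 2 kb of a gene start and those farther away, with 95% Wilson intervals. Over all regions the share was 4.91% at unmarked regions, 10.9% with K27ac only, 1.91% with CTCF only and 8.17% with both.

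At the 81 bound regions the authors' HOXD13-HA fold had a median of 3.77 (quartiles 2.97 and 4.94, range 2.03 to 13.5), against 3.42 at HOXD13-HA regions in other regions open in the 4 lines and 3.93 over all 29176 HOXD13-HA regions. These 81 HOXD13-HA regions were 0.278% of that list. Of the same list, 2526 regions (8.66%) overlapped any region open in the 4 lines, and 16211 lay outside all merged ATAC regions. The HOXD13-HA summit lay a median of 67 bp (quartiles 25 and 118) from the A375-GFP ATAC summit at unmarked regions, against 86 bp with K27ac only, 75 bp with CTCF only and 113 bp with both. It lay within 100 bp at 66.7% of unmarked regions, against 54.8%, 64.2% and 46.6% in the same order. The share within 100 bp was thus close to that at regions with CTCF only. The classes also differed in median width (above), which limits such distances, and its part in them was not tested.

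The highest HOXD13-HA folds at unmarked regions were 13.5 near KRT16, a stress keratin gene, 12.8 in C3orf70 and 11.3 near IL13RA1, a subunit of the interleukin-13 receptor. The next were 8.10 near LNPK, 7.67 near COBL, 7.47 in TAMM41, 7.19 near RPL34, 7.16 in ADARB1, 7.12 near TNS3 and 7.01 near HACE1. None of these 10 lay within 2 kb of a gene start. LNPK neighbours the HOXD cluster, and its region, chr2:175806973-175807341, lay 195664 bp from the LNPK start and 559 bp from the nearest K27ac region. The KRT16 region had ATAC folds of 7.89 in 501mel, 4.82 in SKMEL-5, 19.5 in SKMEL-147 and 12.3 in A375-GFP. The 10 bound regions near a gene start were at ADD2, GADL1, PCSK1, MGAM2, TTPA, GPR158, LMO3, SHISA2, PIK3IP1 and CITED1. They had HOXD13-HA folds from 2.15 at PIK3IP1, an inhibitor of PI3 kinase, to 5.61 at MGAM2, with 4.85 at CITED1, a CBP/p300-binding coactivator expressed in melanocytes.

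Distances from unmarked open regions to marked chromatin varied widely. The distance to the nearest K27ac region had a median of 13662 bp (quartiles 5107 and 33794, range 2 to 692962), and it was under 1 kb at 151 regions and under 10 kb at 684 (41.5%). The distance to CTCF had a median of 19994 bp. The shortest K27ac distances were 2 bp in JARID2, 11 bp in NHEJ1, 12 bp near BTC, 13 bp near TBC1D3 and 15 bp near EIF5. The longest were near KCNJ18, LOC124901649, API5, KHDRBS2 and DEFB131A. The KHDRBS2 region lay 54 bp from a gene start and 398338 bp from K27ac. At the edge of the rule, 14 unmarked regions lay under 50 bp from a K27ac region, and none of them overlapped HOXD13-HA. On the other side, 31 regions without CTCF overlapped K27ac by at most 50 bp, and 3 of them overlapped HOXD13-HA.

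How many regions counted as unmarked depended on single lists. Each K27ac list alone excluded between 18 regions without CTCF (shH2) and 213 (SKMEL-5). The SKMEL-5 CTCF list alone excluded 1307 regions without K27ac, and the 501mel CTCF list 222. Of the 8824 regions with K27ac only, 813 were in all 8 K27ac lists. Without the SKMEL-5 ATAC list, the shortest, the count of unmarked open regions was 4255, and without the 4 hairpin-series K27ac lists it was 2568, with 3634 genes within 50 kb. With ATAC lists at −log10 q of at least 10 it was 315, with 485 genes, and with ATAC lists of equal length 469. Of all merged regions, 66.7% of those open in 1 line had neither K27ac nor CTCF, 35.2% in 2 lines, 17.2% in 3 and 4.92% in 4.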

How the data were processed

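The series holds 21 samples, of which 15 have region lists. Not analysed here were 5 IgG samples and the A375-GFP sample for HA. The tools named per the submitters' processing notes are MACS2, Bowtie2, Trim Galore, deepTools and SAMtools, with the build hg38 and no versions. The deposited lists give a score (10 times the −log10 q), a fold (a ratio over background), and −log10 p and −log10 q, all computed by the authors, and no read counts, so depth is unknown. Extraction of RNA is the only extraction described per the labels' protocols, and library preparation is not given in the sources used here.

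Regions on autosomes and X were merged without a filter for repeats or mappability, and overlaps of at least 1 bp counted. Genes were the 19974 protein-coding genes of RefSeq GRCh38.p14. Starts came from the promoter table for 15812 of them, and the nearer gene end stood in for the others, including all of chromosome 8. Regions were ranked by their mean percentile of −log10 q over the 4 ATAC lists. Named were the 10 highest-ranked (1 of them is not reported here), the 10 with the highest HOXD13-HA fold, the 10 genes with most regions, up to 4 genes per list and the 5 shortest and 5 longest distances to K27ac. The 10 regions near a start with HOXD13-HA were named after their values were seen. Members and lists were chosen with earlier results of these data known. Shares have 95% Wilson and differences Newcombe intervals. Scripts were tested on simulated data (Python 3.11.15, pandas 2.3.3, numpy 2.4.6, scipy 1.17.1, matplotlib 3.10.9).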

Additional observations from a re-analysis of the deposited data

How the results depend on the processing

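The number of unmarked regions, 1650, was 4255 without the SKMEL-5 ATAC list, 2568 without the 4 hairpin-series K27ac lists, 315 with ATAC lists at −log10 q of at least 10 and 469 with ATAC lists of equal length. The HOXD13-HA share, 4.91%, was 6.62% without the hairpin series, 1.53% with all lists at that minimum, 6.61% with equal lengths and 1.76% with only HOXD13-HA at that minimum. The difference from other regions was -0.718, -0.846, -0.693 and -0.868 points in the same order, below 0 in all 17 alternatives, with the whole interval below 0 in 13. The share near a gene start, 26.6%, was 23.6% without the 501mel ATAC list, 18.4% without SKMEL-5, 21.4% without SKMEL-147, 20.8% without A375-GFP, 29.7% without the hairpin series, 35.9% with ATAC lists at the minimum, 39.3% with all lists at it, 46.7% with equal lengths, 24.1% within 1 kb, 29.5% within 5 kb and 19.7% with only genes whose start is given. The number of genes within 50 kb, 2333, was 3634 without the hairpin series, 485 with ATAC lists at the minimum, 1156 within 10 kb and 3623 within 100 kb. The ETS difference, -15.69 points, was -20.75 points with the 6 letters CGGAAG. The other 44 of 72 alternative values stayed within the spread used. The cause of these changes was not tested.

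Leaving out either shNTC replicate gave 1698 to 1766 regions, a HOXD13-HA share of 4.95 to 5.04%, a difference of -2.46 to -2.37 points, a share near starts of 26.6 to 27.7% and 2408 to 2498 genes. No paired analysis was possible because only shNTC has replicates and no result comes from a test. The settings without the MHC, away from gene starts only and with only genes whose start is given, and both ETS settings, were chosen after seeing the data. Motifs in the regions themselves were not counted, since no genome was used here.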
